A study of Mus musculus with 10 samples.

Results

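The genes described here are placental growth factor (Pgf), the vascular endothelial growth factors Vegfa, Vegfb and Vegfc, and their receptors and co-receptors Flt1, Kdr, Nrp1 and Nrp2. All probe sets annotated to these 8 genes were taken, which gave 20 of the 45101 probe sets on the array: 1 for Pgf, 2 for Vegfa, 1 for Vegfb, 3 for Vegfc, 4 for Flt1, 1 for Kdr and 4 each for Nrp1 and Nrp2. Pgf and Vegfa were chosen by their measured preshock difference in the line labelled knockout, where both stood higher, and the other genes because they bind the same ligands or belong to the same family. The knockout-line preshock values of these 8 genes are therefore given as a description without a test. Comparisons between the lines use the same knockout arrays, so for Pgf and Vegfa they are not independent of this choice.

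The arrays came from mouse embryonic fibroblasts (MEF), cells grown from mouse embryos that serve as a standard fibroblast culture. One line was labelled hsp70 (-/-) or knockout and the other (+/+) or rescue, and each group below carries 1 of these labels. Preshock was a 30-minute bath at 43 °C, given 20 hours after plating, with harvest 3 hours later, and unheated cells of the same line were the controls. There were 3 preshocked and 3 unheated arrays of the knockout line, and 2 preshocked and 2 unheated arrays of the rescue line. Each sample pooled lysates of 144 wells, and nothing in the labels says that replicates came from separate cultures, so p-values measure only the spread between these samples, which may be technical. The labels give neither how many clones each line holds nor how the rescue line was made, so a difference between the lines cannot be told apart from any other difference between these cultures.

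Before the results, 3 facts about the arrays bear on them. The 3 probe sets of Hspa1b, one of the inducible Hsp70 genes, read 63.2 to 477 in the unheated knockout arrays and 15500 to 39400 in the preshocked ones, against 24700 to 43300 in the preshocked rescue arrays, so the libraries labelled knockout held Hspa1b signal after preshock; whether these probes lie inside the deleted part is not known here. Hspa1a stayed between 3.49 and 25.8 on all 10 arrays. The arrays numbered 5 and 6, a preshocked and an unheated knockout array, had median intensities of 100 and 107, against 50.7 to 73.7 on the other 8. The fibroblast markers summed to a normalised level of 89800 to 105000 on every array, led by the mesenchymal filament Vim and by S100a4, and 10 of 13 on the array passed the filter on dim genes. Vim and S100a4 kept nearly the same rank on every array, so quantile normalisation holds their part of the sum steady. In deposited intensity Vim read 21100 to 50000 and S100a4 15900 to 35500. Collagen Col1a2 read 10900 to 16400 and fibronectin Fn1 10200 to 12900, whereas Thy1 was dim at 61 to 122, and Postn (2.79 to 188), Lum (13.5 to 64.1) and Fap (2.56 to 48.7) did not pass the filter. The defining endothelial marker Pecam1 read 2.72 to 19.4 and Cdh5 22 to 67.7, and 3 of 17 endothelial markers (Esam, Egfl7 and Mmrn2) passed the filter on dim genes. The labelled cell type was thus borne out by most, but not all, of its listed markers.

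The VEGF family are secreted dimers that act mainly on blood and lymphatic vessels. Vegfa binds the receptor tyrosine kinases Flt1 (VEGF receptor 1) and Kdr (VEGF receptor 2, which carries most of the signal for endothelial growth), whereas Pgf and Vegfb bind Flt1 and not Kdr, and Vegfc acts mainly through Flt4 and, once processed, Kdr. Nrp1 and Nrp2 are neuropilins, co-receptors without a kinase that bind VEGF ligands and class 3 semaphorins. Fibroblasts are known as a source of the ligands, Vegfa is a classic target of hypoxia-inducible factors, and Pgf, first found in placenta, is induced by metal and hypoxic stress through the metal-responsive factor MTF1.

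Promoter windows of RefSeq (assembly GRCm38.p6), from 250 bases before to 50 bases after an annotated start, were available for all 8 genes, 10 windows in all. The first Pgf window, of the gene with the largest change, and both Vegfa windows are shown, 5′ to 3′ on the gene's strand. Capitals mark matches to the motifs searched.

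Pgf, chr12:85177264-85177563, minus strand: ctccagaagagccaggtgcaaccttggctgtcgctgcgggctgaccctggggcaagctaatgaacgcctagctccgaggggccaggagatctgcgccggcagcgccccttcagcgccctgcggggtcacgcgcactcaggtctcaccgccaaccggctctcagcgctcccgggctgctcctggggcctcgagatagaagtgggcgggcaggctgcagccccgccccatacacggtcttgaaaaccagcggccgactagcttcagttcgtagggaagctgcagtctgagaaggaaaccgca

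Vegfa, first window, chr17:46032328-46032627, minus strand: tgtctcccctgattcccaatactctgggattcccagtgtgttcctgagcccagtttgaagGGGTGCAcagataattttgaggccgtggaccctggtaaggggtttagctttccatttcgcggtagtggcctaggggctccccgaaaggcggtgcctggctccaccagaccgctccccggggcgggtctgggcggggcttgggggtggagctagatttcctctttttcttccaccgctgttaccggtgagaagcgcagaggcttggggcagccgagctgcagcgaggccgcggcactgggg

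Vegfa, second window, chr17:46025114-46025413, minus strand: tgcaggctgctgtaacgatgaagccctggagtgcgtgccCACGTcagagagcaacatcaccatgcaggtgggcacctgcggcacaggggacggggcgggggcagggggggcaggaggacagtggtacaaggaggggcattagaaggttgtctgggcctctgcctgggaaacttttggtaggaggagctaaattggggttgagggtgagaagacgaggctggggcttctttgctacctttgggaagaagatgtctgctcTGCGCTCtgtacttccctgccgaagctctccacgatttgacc

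Both strands were searched for a heat shock element (GAANNTTC or TTCNNGAA, in 15.1% of the 32851 mouse windows in the table), a metal response element (TGCACNC or TGCGCNC, 25.7%), a hypoxia response element (ACGTG, 19.6%), an AP-1 element (TGACTCA or TGAGTCA, 5.2%) and an ATF and CRE element (TGACGTCA, 1.79%). None of these motifs overlapped another in the windows shown. The first Vegfa window held a metal response element on the opposite strand, read here as GGGTGCA, 190 bases before the start. The second Vegfa window held TGCGCTC at base 9 after the start, and a hypoxia response element on the opposite strand, read here as CACGT, 211 bases before it. By its coordinates this second window lies downstream of the first Vegfa start on the gene's strand, so its matches are not before that start. Flt1 held 1 match, TGACGTCA, 81 bases before its start. Neither Pgf window held any of the 5 motifs, and no window of the 8 genes held a heat shock or AP-1 element. The matches are letters in a window, and an absent match says only that the letters are not in it.

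Pgf was higher after preshock and higher in the rescue line, so its 4 groups formed 4 separate levels. The deposited intensity of its probe set was 146, 171 and 184 in the unheated knockout arrays (numbered 6, 12 and 14), with a mean of 167 ± 19.5 (SD, n = 3). It was 1173, 1066 and 986 in the preshocked knockout arrays (numbered 5, 11 and 13), with a mean of 1075 ± 94.3 (SD, n = 3). Every preshocked array of this line thus stood far above every unheated one. The rescue arrays read 631 and 770 unheated (arrays 32 and 44) and 2651 and 3531 preshocked (arrays 31 and 43). No group overlapped another: unheated knockout was lowest, then unheated rescue, then preshocked knockout, then preshocked rescue. Within an array the Pgf probe set stood at the 56.5th to 66.4th percentile of all probe sets in unheated knockout, and at the 93rd to 94.8th in preshocked rescue.

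**Figure D1:**
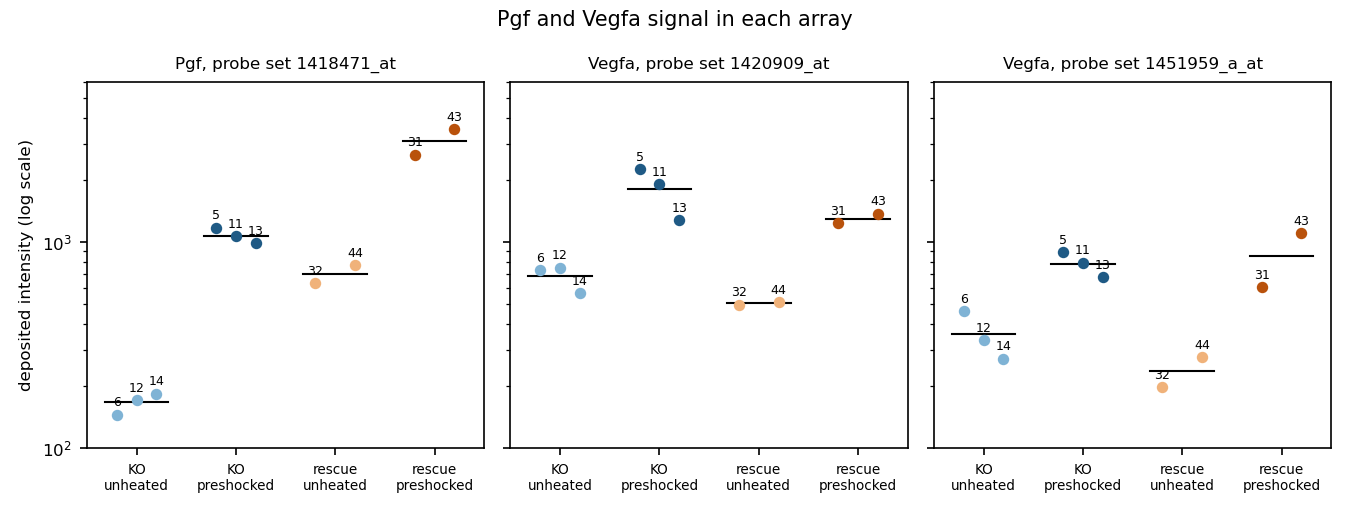
Deposited intensity (log scale) of the Pgf probe set and both Vegfa probe sets in each of the 10 arrays, by group; each point is 1 array and each line is the group's mean. Pgf runs from 146 in unheated knockout to 3531 in preshocked rescue with no overlap between any 2 groups, while the unheated and preshocked Vegfa points separate within each line.

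On the normalised log2 scale, a model with 1 mean for each of the 4 groups gave a Pgf preshock difference of 2.93 ± 0.27 (SE; 7.63-fold, 95% interval 2.32 to 3.55) in the knockout line, the contrast used to pick it. It ranked 11 of 10915 genes tested there, of which 0.944% were called higher and 1.77% in either direction (103 genes higher and 90 lower, or 24 and 2 with arrays centred on their medians). The rescue arrays did not choose Pgf, and in them it rose by 2.15 ± 0.33 (SE; 4.45-fold, interval 1.40 to 2.91, limma adjusted p = 0.0428) and ranked 29. This SE and p-value, and those of Vegfa below, rest on a spread estimated over all 10 arrays. They are therefore not fully independent of the knockout arrays. Pgf was 1 of the 8 genes called in that comparison, against 0.357% of all genes tested and 0.275% called higher (30 genes higher and 9 lower, the latter 0.0825%, which became 7 and 0 with arrays centred on their medians). The call is near the threshold: with the array pairs as a block the limma adjusted p was 0.0533, and over all probe sets without a filter it was 0.252. The call held when unheated knockout array 14 or 6 was left out, and was lost when any 1 of the other 8 arrays was left out (limma adjusted p 0.0672 to 0.254, change 1.93 to 2.36). As only RNA from whole cultures was measured, more cells with Pgf RNA and more Pgf RNA per cell cannot be told apart.

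Paired by the adjoining numbers in the labels, Pgf was higher in the preshocked array by 3.63, 2.77 and 2.39 in the 3 knockout pairs (5 and 6, 11 and 12, 13 and 14) and by 2.03 and 2.28 in the rescue pairs (31 and 32, 43 and 44). The pair of arrays 5 and 6, which stood apart in median intensity, held the highest of these 5 differences. The rescue response minus the knockout response was -0.78 ± 0.42 (SE, interval -1.75 to 0.19), which includes the contrast that chose the gene and is a description.

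Without heat, Pgf was higher in the rescue line than in the knockout line by 2.23 ± 0.30 (SE; 4.68-fold, interval 1.54 to 2.91, limma adjusted p = 0.0303) and ranked 9 of 10915. It was the 1 of 8 genes called, against 0.421% of all genes tested (12 genes higher, or 0.11%, and 34 lower, or 0.311%, which became 19 and 13 with arrays centred on their medians, and 7 and 37 in the deposited scaling). With the pairs as a random block the limma adjusted p was 0.119, and over all probe sets it was 0.152. The unheated knockout values also entered the choice of Pgf, so these p-values, the rank and the call are not independent of it. The call held without unheated knockout array 14 or 6 or preshocked knockout array 5, and was lost without any 1 of the other 7 (limma adjusted p 0.0542 to 0.215, difference 1.95 to 2.45).

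Among preshocked arrays Pgf was higher in rescue by 1.45 ± 0.30 (SE; 2.73-fold, interval 0.76 to 2.13), which did not pass (limma adjusted p = 0.105, unadjusted p = 0.00113). None of the 8 genes was called in that comparison, against 0.339% of all genes tested by limma (11 genes higher, or 0.101%, and 26 lower, or 0.238%, which became 15 and 7 with arrays centred on their medians), while Pgf and Vegfb had unadjusted limma p-values under 0.05. The same held for 1536 of the 10915 genes tested. The Pgf call was gained when unheated knockout array 6 was left out (limma adjusted p = 0.0362). The preshocked knockout values also entered the choice of Pgf, so these p-values are not independent of it.

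Vegfa, the ligand of both Flt1 and Kdr, stood higher after preshock on all 5 pairs at both of its probe sets, and no line difference at either probe set passed the test. At the brighter probe set (1420909_at) the intensity was 730, 752 and 564 in unheated knockout and 2247, 1902 and 1279 in preshocked knockout. Rescue arrays gave 498 and 510 unheated and 1230 and 1370 preshocked. Preshocked and unheated arrays did not overlap within either line. The second probe set (1451959_a_at) read 463, 333 and 272 against 891, 793 and 675 in the knockout line. It read 198 and 277 against 605 and 1107 in the rescue line, again without overlap.

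The Vegfa preshock difference at the brighter probe set was 1.44 ± 0.20 (SE; 2.72-fold, interval 0.98 to 1.91) in the knockout line, a description. The same difference in the rescue line was 1.41 ± 0.25 (SE; 2.66-fold, interval 0.84 to 1.99), which narrowly missed the threshold (limma adjusted p = 0.0716) and ranked 103 of 10915. With the array pairs as a block it passed (limma adjusted p = 0.0382), as it did without preshocked knockout array 5 or 13 (0.0456 and 0.04). In the fit over all probe sets the second probe set gave 1.83 ± 0.32 in the rescue line (limma adjusted p = 0.252), and the brighter one 1.41 ± 0.31 (0.369). By pair, the brighter probe set differed by 1.75, 1.39 and 1.19 in the knockout line and 1.33 and 1.49 in the rescue line. The responses of the lines differed by -0.03 ± 0.32 (SE, interval -0.77 to 0.71), rescue minus knockout, which leaves room for a difference of either sign.

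Between the lines the 2 Vegfa probe sets did not behave alike. Unheated, both stood lower in rescue without overlap after normalisation (in deposited intensity 1 rescue array, at 277, stood above the lowest knockout array at the second probe set), by -0.44 ± 0.23 in the gene table (limma adjusted p = 0.448) and by -0.50 ± 0.29 at the second probe set (0.724). Preshocked, the brighter one was at -0.47 ± 0.23 (limma adjusted p = 0.397) and the second at 0.05 ± 0.29 (0.977). None of these line differences passed the test. With arrays centred on their medians, which moved the median rescue-minus-knockout difference of all genes from -0.0236 to 0.497 unheated and from -0.0135 to 0.418 preshocked, the brighter Vegfa probe set gave 0.12 and 0.03, so its sign turned. Under that scaling the sign also turned for Flt1 unheated and for Nrp1 in both states, while Pgf gave 2.61 and 1.98.

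Vegfb, a ligand of Flt1 known from heart and muscle, showed no call in any tested comparison. It read 959, 747 and 987 in unheated knockout, 897, 670 and 653 in preshocked knockout, 1082 and 1498 in unheated rescue, and 1069 and 1116 in preshocked rescue. All 4 rescue arrays stood above all 6 knockout arrays. The share of all probe sets that do so over both states was not counted. Within a state, 13.1% unheated and 13.3% preshocked stood higher in rescue without overlap. The rescue preshock difference was -0.18 ± 0.22 (SE, interval -0.69 to 0.33, limma adjusted p = 1) and the knockout one -0.21 ± 0.18. Rescue minus knockout was 0.51 ± 0.20 unheated (limma adjusted p = 0.344) and 0.54 ± 0.20 preshocked (0.303).

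The 3 probe sets of Vegfc, the ligand best known for lymphatic growth, disagreed in the rescue line. The brightest (1439766_x_at), whose identifier ends in the suffix Affymetrix uses for probes that can match other sequences, read 375, 287 and 224 in unheated knockout and 587, 442 and 358 in preshocked knockout. Rescue arrays read 542 and 221 unheated and 315 and 221 preshocked, so the groups overlapped there. Its preshock difference was 0.77 ± 0.33 in the knockout line and -0.27 ± 0.41 in the rescue line (SE, interval -1.20 to 0.66, limma adjusted p = 1).

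The other Vegfc probe sets were higher in the preshocked array of all 5 pairs. At 1440739_at the rescue arrays read 205 and 168 unheated and 367 and 303 preshocked, a difference of 0.88 ± 0.35 (limma adjusted p = 0.842 over all probe sets). At 1419417_at they read 112 and 90.2 unheated and 147 and 252 preshocked, a difference of 0.90 ± 0.39 (0.888). At that probe set the knockout arrays read 110, 122 and 116 unheated and 286, 195 and 215 preshocked, without overlap. The pair of arrays 5 and 6 gave 1.89 there, against 0.84 and 0.91 in the other knockout pairs. No Vegfc probe set was called between the lines, where the brightest gave 0.31 ± 0.37 unheated (limma adjusted p = 0.749) and -0.73 ± 0.37 preshocked (0.419).

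Flt1, the receptor shared by Pgf, Vegfa and Vegfb, showed small differences that did not pass the test. Its brightest probe set (1419300_at) read 543, 527 and 564 in unheated knockout and 575, 640 and 733 in preshocked knockout. It read 473 and 336 in unheated rescue and 476 and 431 in preshocked rescue. In deposited intensity all 4 rescue arrays lay below all 6 knockout arrays, and the share of all probe sets that do so was not counted. After normalisation preshocked rescue array 31 (9.02) stood above unheated knockout arrays 6 (8.92) and 12 (8.98). Within a state this probe set was lower in rescue without overlap, as were 13% of all probe sets unheated and 12.4% preshocked. The preshock difference was 0.33 ± 0.21 in the knockout line and 0.29 ± 0.25 in the rescue line (SE, interval -0.29 to 0.87, limma adjusted p = 0.982). Rescue minus knockout was -0.44 ± 0.23 unheated (limma adjusted p = 0.464) and -0.48 ± 0.23 preshocked (0.398), but 0.09 and -0.04 with arrays centred on their medians, so this sign depends on the scaling.

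The other 3 Flt1 probe sets were dimmer, from 62.7 to 456 over all arrays. In the fit over all probe sets their rescue preshock differences ran from -0.16 ± 0.40 to 0.68 ± 0.42, and all 4 Flt1 probe sets were below 0 for rescue minus knockout in both states, from -0.27 ± 0.36 to -0.65 ± 0.38 unheated and from -0.14 ± 0.38 to -0.66 ± 0.36 preshocked. They share a gene, the same arrays and the same normalisation, so their common sign is not independent support.

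Kdr, the main signalling receptor of Vegfa, was dim and erratic. It read 239, 13.9 and 34.3 in unheated knockout, 167, 96.4 and 22.4 in preshocked knockout, 24.9 and 59.9 in unheated rescue, and 43.3 and 49.0 in preshocked rescue. The 2 highest values were those of arrays 6 and 5, the pair that stood apart in median intensity. Its rescue preshock difference was 0.25 ± 1.19 (SE, interval -2.47 to 2.97, limma adjusted p = 1), which spans changes of several fold in both directions. The differences by pair ran from -0.65 to 3.11.

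Nrp1, the neuropilin that binds Pgf and Vegfa, had 4 probe sets that did not move together. The brightest (1448943_at) read 2169, 2138 and 2079 in unheated knockout and 1883, 1592 and 1452 in preshocked knockout. In rescue it read 2888 and 1473 unheated and 1593 and 1384 preshocked. It was lower in the preshocked array of all 5 pairs, by -0.07 to -0.82, although the rescue groups overlapped. The rescue difference was -0.45 ± 0.30 (SE, interval -1.13 to 0.24, limma adjusted p = 0.862) and the knockout one -0.37 ± 0.25.

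The dimmest Nrp1 probe set (1457198_at) went the other way, higher in the preshocked array of all 5 pairs, by 0.41 to 1.34. It read 200 and 197 in unheated rescue and 332 and 250 in preshocked rescue, a difference of 0.60 ± 0.56 (limma adjusted p = 1 over all probe sets). The remaining Nrp1 probe sets, 1418084_at and 1448944_at, lay between 725 and 1250 on every array and differed by 0.17 ± 0.35 and 0.24 ± 0.27 in the rescue line. Probe sets of a gene can read different transcript forms, and which form each reads was not examined. With the mean of its probe sets in place of the brightest, the sign of the Nrp1 preshock difference turned in both lines, to 0.12 in knockout and 0.14 in rescue.

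Nrp2, the neuropilin that binds Vegfc, stood lower after preshock at its brightest probe set (1435349_at). It read 1309, 1153 and 1170 in unheated knockout and 1039, 839 and 735 in preshocked knockout. It read 1326 and 1244 in unheated rescue and 931 and 896 in preshocked rescue. Preshocked and unheated arrays did not overlap in either line. The rescue difference was -0.43 ± 0.17 (SE, interval -0.83 to -0.04), which did not pass (limma adjusted p = 0.515, unadjusted p = 0.0337), and with the pairs as a block the limma adjusted p was 0.0771. By pair the differences were close together, -0.36, -0.40 and -0.56 in knockout and -0.43 and -0.44 in rescue.

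The other Nrp2 probe sets gave 0.08 ± 0.37, 0.16 ± 0.27 and 0.08 ± 1.43 for the rescue preshock difference, so the lower value was seen at the brightest of the 4. With the mean of the probe sets it shrank to -0.06 in knockout and -0.03 in rescue. The dimmest (1447343_at) stood higher in rescue without overlap in both states, at 53.0 and 74.0 against 7.56 to 42.9 unheated, and at 58.6 and 73.0 against 7.04 to 45.1 preshocked. These differences of 2.03 ± 1.31 and 2.20 ± 1.31 did not pass (limma adjusted p = 0.75 and 0.729 over all probe sets).

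**Figure D2:**
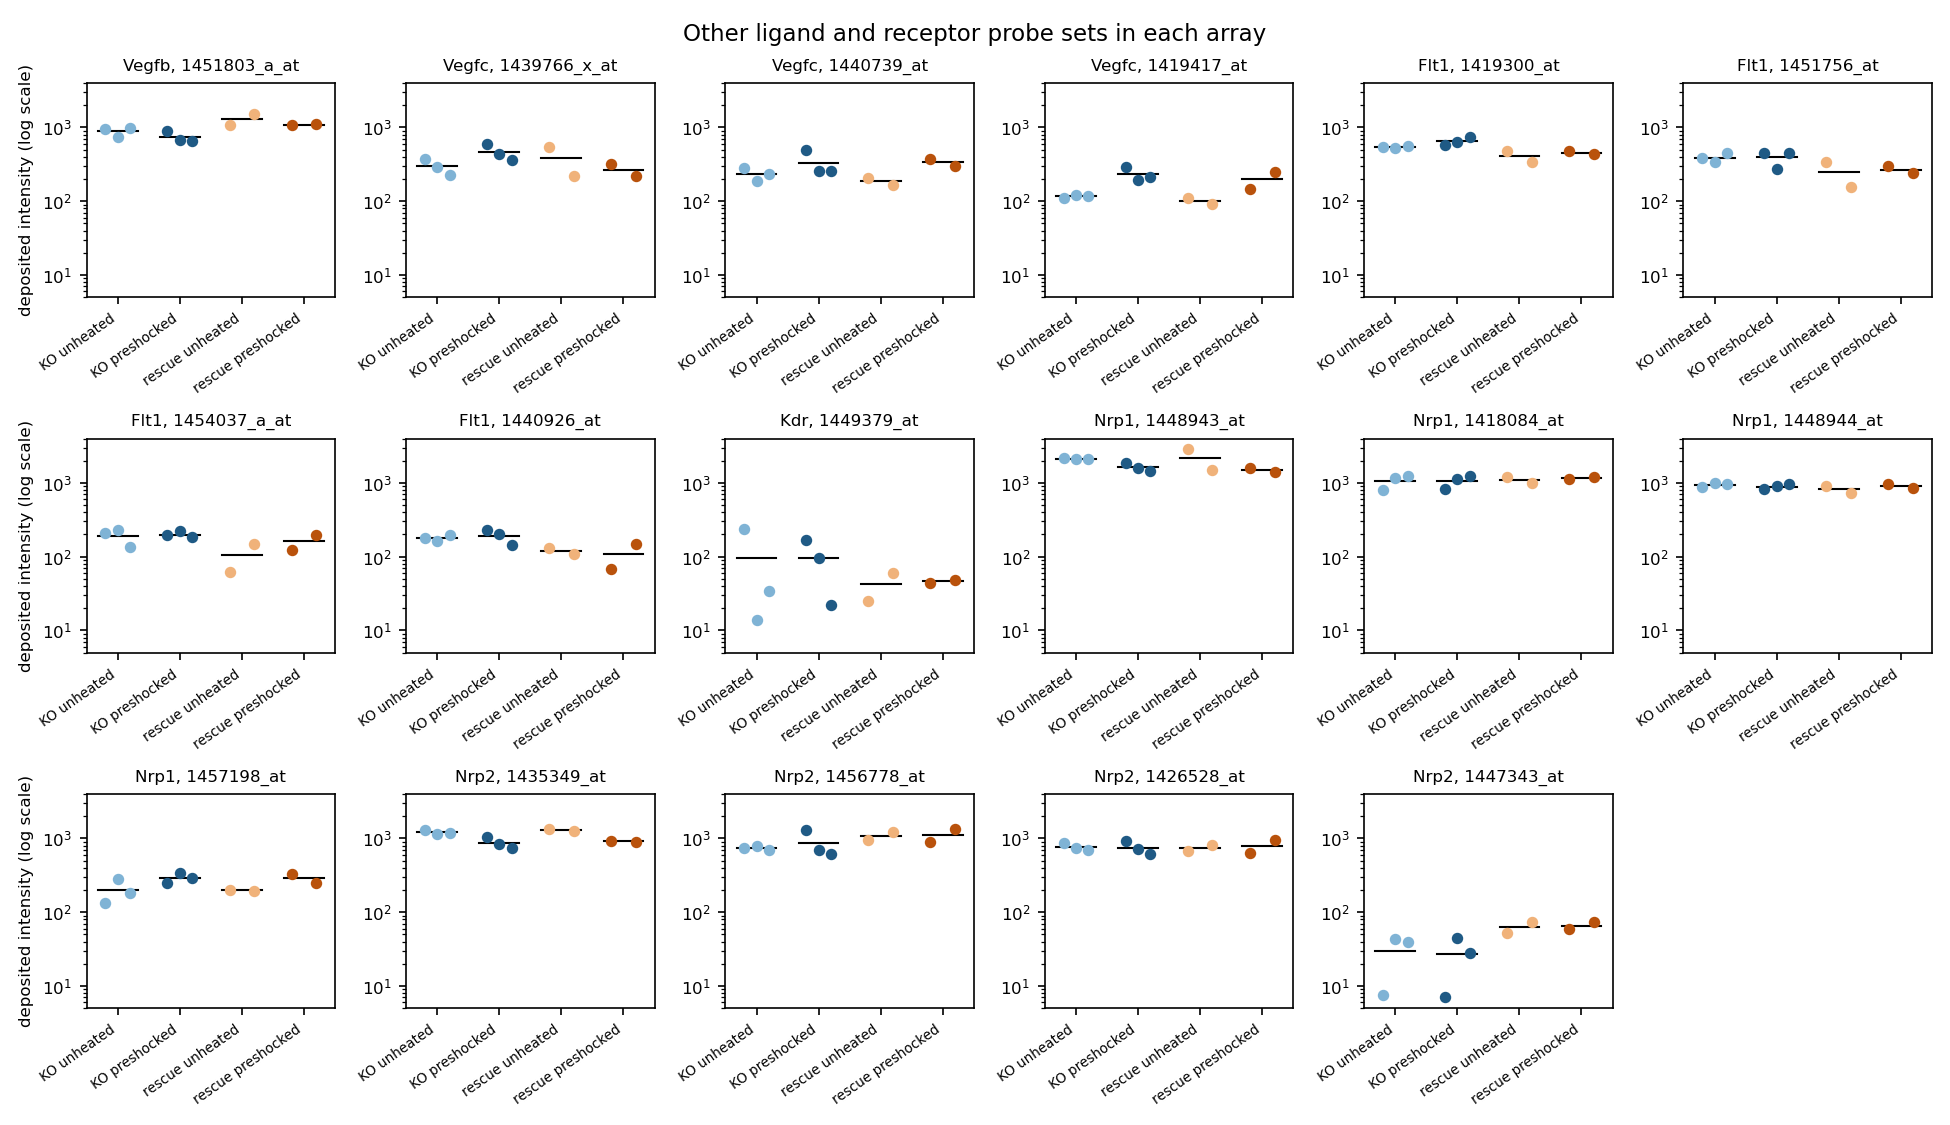
Deposited intensity (log scale) of the other 17 probe sets, of Vegfb, Vegfc, Flt1, Kdr, Nrp1 and Nrp2, in each of the 10 arrays, by group; each point is 1 array and each line is the group's mean. Kdr scatters from 13.9 to 239 within unheated knockout, whereas Nrp2 at 1435349_at falls into separate preshocked and unheated levels in both lines.

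Over the 20 probe sets, 7 were higher in the preshocked array of all 5 pairs: Pgf, both of Vegfa, 2 of Vegfc, 1 of Flt1 and 1 of Nrp1. Another 2 were lower in all 5 pairs, 1 of Nrp1 and 1 of Nrp2, and 11 were mixed. Among all probe sets, 9.34% were higher and 10.7% lower in all 5 pairs. These pairs include the knockout pairs that chose Pgf and Vegfa, so nothing is read from the 3 probe sets of those genes here.

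Overlap was counted on normalised values. In the knockout line, whose values chose Pgf and Vegfa, 6 of 20 probe sets were higher in every preshocked array than in every unheated one (5.07% of all probe sets) and 2 lower (6.24%). In the rescue line alone, 6 of 20 probe sets were higher in both preshocked arrays than in both unheated ones, against 16.8% of all probe sets, and 1 was lower, against 17.5%. The 6 were Pgf, both of Vegfa, 1440739_at and 1419417_at of Vegfc, and 1457198_at of Nrp1, and the 1 lower was 1435349_at of Nrp2. Between the unheated lines 4 of the 20 were higher in rescue (13.1% of all probe sets) and 3 lower (13%), and between the preshocked lines 3 were higher (13.3%) and 3 lower (12.4%). Those line counts lie near the share among all probe sets. None of the 20 was called in the limma fit over all probe sets, in which 0.0244% were called for the rescue response, 0.0266% between the unheated lines and 0.04% between the preshocked lines. The unadjusted limma p was under 0.05 for 4, 1 and 1 of the 20. The share among all probe sets was not counted, so nothing is read from these counts.

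**Figure D3:**
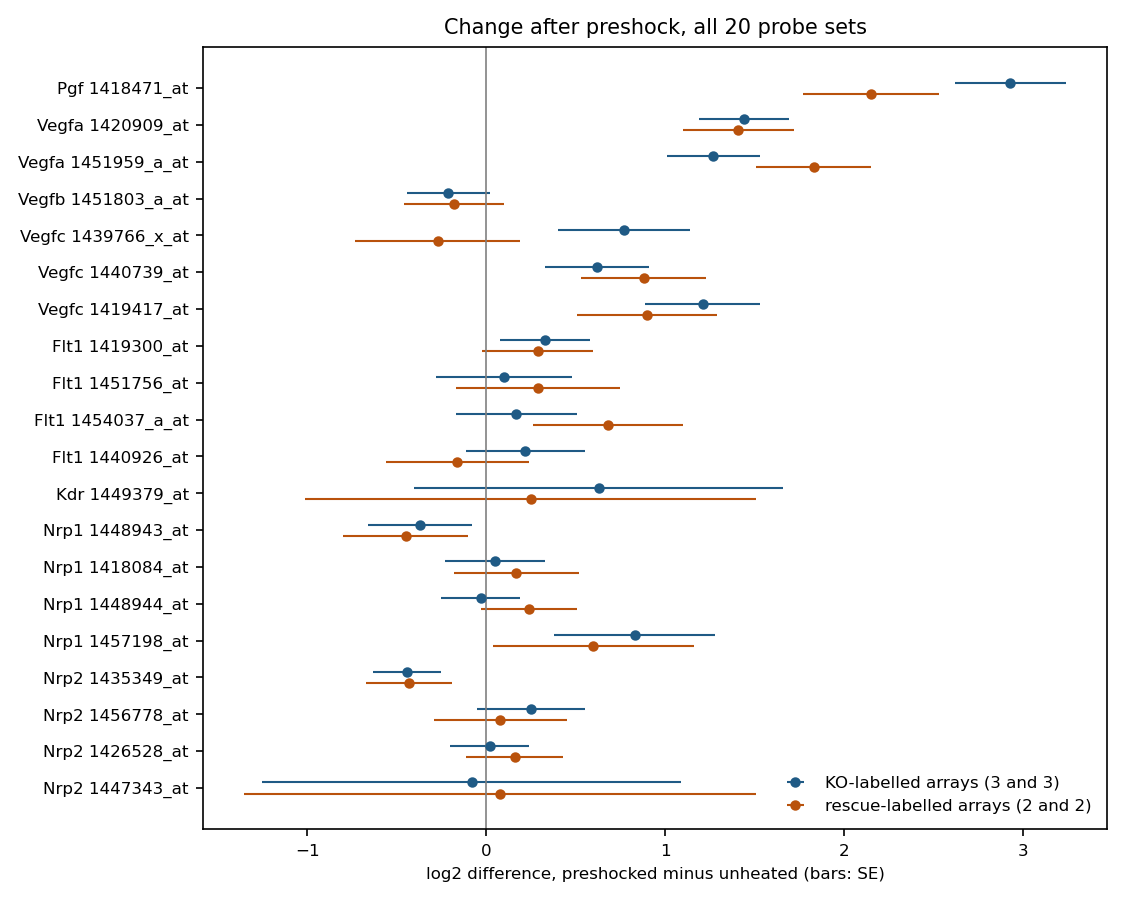
Preshocked minus unheated, as a log2 difference with its SE, for all 20 probe sets in the knockout line (3 and 3 arrays) and the rescue line (2 and 2 arrays), from the fit over all probe sets. Pgf lies farthest to the right in both lines, at 2.93 and 2.15, followed by the Vegfa probe sets.

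**Figure D4:**
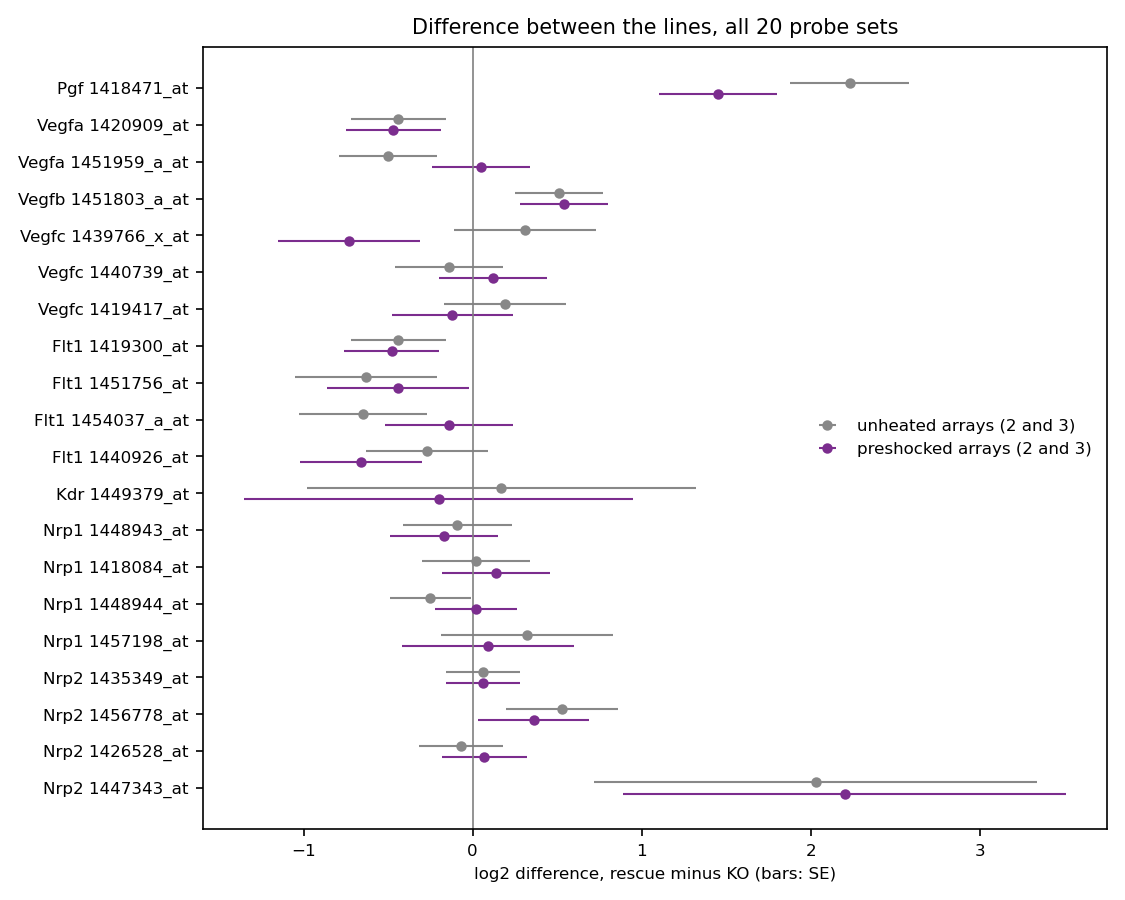
Rescue minus knockout, as a log2 difference with its SE, for all 20 probe sets in unheated and in preshocked arrays (2 and 3 arrays each), from the fit over all probe sets. Pgf lies at 2.23 and 1.45, the 4 Flt1 probe sets all lie left of 0 under quantile normalisation (the brightest is at 0.09 and -0.04 with arrays centred on their medians), and the dim Nrp2 probe set 1447343_at has an SE of 1.31.

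The genes whose levels followed Pgf most closely over the 10 arrays were not VEGF family members. By Pearson's r of normalised log2 values they were the protease Capn2 (0.975), Wdr37 (0.968), the ubiquitin ligase Siah2 (0.967), the nuclear receptor coactivator Pnrc1 (0.966) and Wdr45b (0.956). The 10 arrays fall into 4 groups and share the contrast that chose Pgf, so these values are a description. Siah2 differed by 1.27 after preshock in knockout and 1.08 in rescue, and Capn2 by 0.35 and 0.25 on the log2 scale, so genes with small and larger changes followed the same order of groups. Vegfa had r = 0.58 with Pgf and ranked 961 of 10913 genes, while Nrp1 and Nrp2 had -0.63 and -0.69. Vegfb, Vegfc, Flt1 and Kdr lay between 0.01 and 0.20.

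The rest of the pathway was read from 8 lists with 138 genes, of which 105 passed the filter on dim genes. The lists were chosen with earlier results of these data known, so their counts of calls and p-values are a description. In the knockout line 8 of the 105 were called higher after preshock and 0 lower, against 0.944% and 0.825% of all genes tested. With the pairs as a block 12 were called higher and 13 lower, when 364 and 635 of all genes were. In the rescue line limma called 0 of the 105, with 24 at an unadjusted p under 0.05 and 1 with the pairs as a block. Of all 10915 genes tested, 913 had an unadjusted limma p under 0.05 there and 164 were called with the block. The median log2 difference of the 105 was 0 in knockout and 0.01 in rescue, against -0.0445 and -0.032 over all genes.

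For 15 tested genes described as induced by VEGF in endothelial cells, the knockout preshock differences had a median of 0.46. They were above 0 for 12 of the 15, and the lowest was -0.8. Of the 15 genes, 6 were called higher and 0 lower, against 0.944% and 0.825% of all genes tested. As the list was chosen with earlier results known, nothing is read from this count. They were the nuclear receptors Nr4a2 (1.97 ± 0.28, limma adjusted p = 0.0148) and Nr4a1 (1.59 ± 0.31, 0.0464), the early growth response factor Egr1 (2.76 ± 0.38, 0.013), the calcineurin regulator Rcan1 (0.82 ± 0.15, 0.0389), the EGF receptor ligand Hbegf (1.19 ± 0.16, 0.0124) and the ERK phosphatase Dusp5 (1.70 ± 0.25, 0.0164). Several of them are immediate early genes that many stimuli induce, and whether they moved with Vegfa or Pgf protein was not tested. With the pairs as a block Egr2 was also called (2.20 ± 0.58 in the fit without it, limma adjusted p = 0.0176 with the block). In the rescue line none of the 15 was called, with a median of 0.13, and with the pairs as a block 1 was, Nr4a2 (limma adjusted p = 0.0245).

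For 11 tested transcription factors described as regulators of Pgf or Vegfa, the knockout preshock differences had a median of -0.01. Of the 11 genes, 2 were called higher and 0 lower, against 0.944% and 0.825% of all genes tested. This list too was chosen with earlier results known, so the count is a description. They were the AP-1 subunit Fos (2.78 ± 0.45, limma adjusted p = 0.0249) and the clock and hypoxia factor Bhlhe40 (1.25 ± 0.23, 0.0364). With the pairs as a block Atf4 (-0.53, limma adjusted p = 0.0261), a factor of the integrated stress response, and Foxd1 (-0.64, 0.0253) were also called, both lower. None was called in the rescue line, where Bhlhe40 gave 1.72 ± 0.28 (limma adjusted p = 0.0556). Mtf1, which carries metal and hypoxic stress to Pgf and is named here after its values were seen, gave 0.77 ± 0.25 in knockout (limma adjusted p = 0.212) and 0.71 ± 0.31 in rescue (0.594).

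None of the 10 tested subunits and oxygen-sensing regulators of hypoxia-inducible factor was called in either line, with medians of -0.09 in knockout and 0.03 in rescue. The 17 tested hypoxia-inducible genes other than Vegfa also gave no call, with medians of 0.09 and 0.03. The pair block called 2 of them in the knockout line, hexokinase Hk2 lower (-0.61, limma adjusted p = 0.0324) and the collagen prolyl hydroxylase P4ha1 higher (0.36, 0.0486). Without the block no call was made among the 6 other VEGF and PDGF family members (-0.05 and -0.16), the 10 semaphorins and plexins (-0.19 and -0.06), or the 20 genes of VEGF receptor signal transduction (0 and 0). With it, the knockout line had lower calls for the ligand Pdgfc (-0.42, limma adjusted p = 0.0416), the receptor Pdgfrb (-0.88, 0.0339), Plxna2 (-0.51, 0.0411), the adaptor Nck1 (-0.80, 0.0217) and the PI3 kinase subunit Pik3r1 (-1.30, 0.0158), and a higher call for Sema3c (0.70, 0.0414). Among the 16 other secreted angiogenic and angiostatic factors no preshock difference was called without the block (-0.07 and -0.10). With it, Fgf7 (-0.67, limma adjusted p = 0.022), Ccn1 (-0.85, 0.0473), Ccn2 (-0.60, 0.0315), Cxcl12 (-0.52, 0.0337) and Thbs1 (-0.44, 0.0347) were called lower and Cxcl1 higher (0.58, 0.0422) in the knockout line. The block called 364 of all 10915 genes tested higher and 635 lower in that line. Since the lists were chosen with earlier results known, nothing is read from the number of block calls in them.

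**Figure D5:**
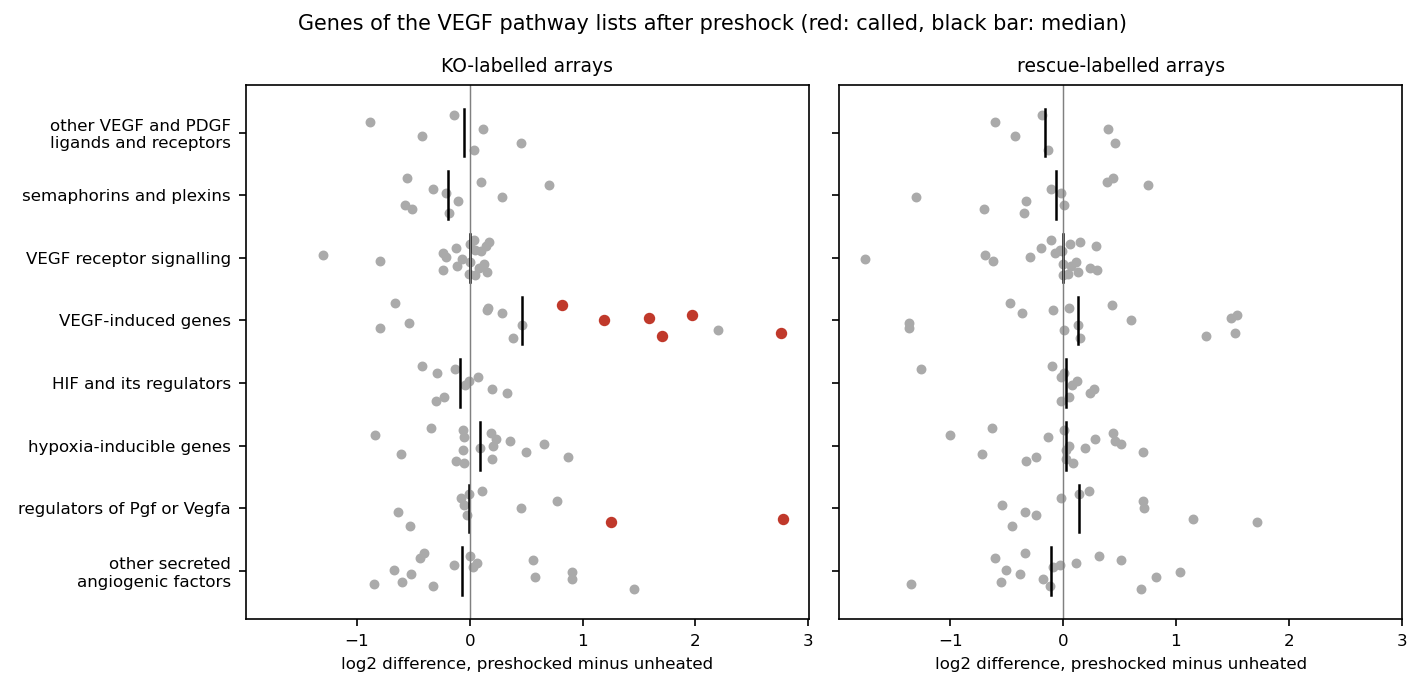
Preshocked minus unheated log2 differences of the tested genes of the 8 pathway lists, by list, in the knockout and rescue lines; each point is 1 gene. Egr1 and Fos lie highest in the knockout line at 2.76 and 2.78, red points passed the test, and black bars, the list medians, lie between -0.19 and 0.46.

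Markers of other cell types were read beside these values. Pgf is known from trophoblast, the placental cell layer, and of 12 trophoblast markers 8 were on the array and 2, Cdx2 and Hand1, passed the filter. The summed normalised level of the 8, led by Cdx2, was 306 to 622 in the knockout arrays and 143 to 211 in the rescue arrays. Neither of the 2 tested was called in any comparison. The endothelial markers, a class of cells in which Flt1 and Kdr are usually found, summed to 570 to 799 in unheated knockout, 579 to 880 in preshocked knockout, 576 to 593 in unheated rescue and 627 to 756 in preshocked rescue, and none of the 3 tested was called. The macrophage markers summed to 872 to 1620 and the epithelial markers to 265 to 1120 over the 10 arrays, with 3 of 10 and 3 of 9 tested and none called without the block. With it Cd14, a macrophage marker, was called lower in the knockout line after preshock (-0.56, limma adjusted p = 0.0222). The part of these cell types in the values above was not tested.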

How the data were processed

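Total RNA of 10 samples was measured on 10 Affymetrix mouse arrays. The deposited table holds 1 linear intensity per probe set and array, and the values show a common scaling, with a mean without the top and bottom 2% of 500.003 to 500.004 on every array. The labels do not name the summarisation software.

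Values below 1 (4935 of them) were set to 1, log2 was taken and the arrays were quantile normalised. Of the 45101 probe sets, 64 controls were left out. The platform annotation gave 34945 probe sets 1 gene symbol; per gene the brightest was kept (18193 genes), and the top 60% by mean signal (10915, lowest mean log2 5.65) were tested. A second fit used all probe sets without a filter. Both used limma 3.58.1 in R 4.3.3 (statmod 1.5.0) with a mean for each of the 4 groups over all 10 arrays, and Benjamini-Hochberg adjustment, called at adjusted p under 0.05. limma was tested on simulated data. The number of arrays limits the precision, most of all in the rescue line with 2 arrays a group.

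Preshocked and unheated arrays with adjoining numbers in the labels deviated together from their group means (correlations 0.721, 0.376, 0.552, 0.37 and 0.37 over the 10915 genes tested, the last pair of values mirroring each other). A fit with the pair as a block was therefore run beside the main fit, fixed within a line and random between the lines (duplicateCorrelation, 0.716). The labels' numbers are the source of this pairing.

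The genes and the gene lists were chosen with earlier results of these data known. Of each list, called genes were named, at most 4 per comparison by adjusted p, except where all called genes of a list, or those that only the pair block called, were given after their values were seen, and the 5 genes most correlated with Pgf. Alternatives were other normalisations, filters, floors, probe set summaries, a robust prior, the pair block, each array left out in turn and, chosen after seeing the data, the pair numbered 5 and 6 left out. Promoter windows came from RefSeq, and coordinates of probe sets were not used here.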

Additional observations from a re-analysis of the deposited data

How the results depend on the processing

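Pgf kept its sign in all 19 alternatives in each of the 5 comparisons, but its calls lie close to the threshold and no call held in every alternative. The Pgf rise in the rescue line (2.15) missed the limma threshold with arrays centred on their medians (2.15, adjusted p = 0.165), with no filter on dim genes (2.15, 0.144), with the mean of the probe sets of each gene (2.15, 0.0568) and with the pair as a block (2.15, 0.0533). The Vegfa difference there (1.41) passed with the top 40% of genes (1.41, 0.0281), the mean of the probe sets (1.62, 0.0475), the robust prior with a trend (1.41, 0.0347) and the pair as a block (1.41, 0.0382). Of the 8 genes, the count called for the rescue response was therefore 0 with median centring and with no filter, and 2 with the top 40% of genes and with the robust prior, against 1. The count called between the unheated lines was 0 rather than 1 with no filter and with the pair as a block, and the count between the preshocked lines was 1 rather than 0 in the deposited scaling (Pgf 1.51, adjusted p = 0.0265) and without the pair numbered 5 and 6 (1.51, 0.0484). The cause was not tested.

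Leaving out each array in turn gave 1.93 to 2.36 for Pgf and 1.37 to 1.45 for Vegfa in the rescue response, with 0 to 1 of the 8 genes called in that comparison, 0 to 1 between the unheated lines and 0 to 1 between the preshocked lines. The median knockout preshock difference of the 8 genes, 0.48, ran from -0.02 to 0.59, and it was -0.02 without unheated knockout array 12. Over all alternatives the count of genes called ran from 26 to 999 for the knockout response (193 as reported), 7 to 164 for the rescue response (39), 5 to 90 between the unheated lines (46) and 0 to 63 between the preshocked lines (37), with 999, 164, 22 and 16 under the pair block. No gene's response was called different between the lines, except 1 with no filter on dim genes and 1 without preshocked rescue array 43. Kdr was not tested among the top 40% of genes. The pair block changed no other call of the 8 genes in the 3 comparisons that were tested. Arrays of 2 a group, dim probe sets such as that of Kdr, and values near the floor limit what can be seen.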

Other observations

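Among the 16 tested secreted angiogenic and angiostatic factors outside the VEGF family, Timp3 was the 1 called between the lines. Of all genes tested, 0.311% were called lower in rescue unheated and 0.238% preshocked. With arrays centred on their medians these lower calls fell from 34 to 13 and from 26 to 7, and Timp3 was not read under that scaling. Timp3, a matrix-bound metalloproteinase inhibitor that also blocks the binding of VEGF to Kdr, was lower in the rescue line by -1.51 ± 0.22 (SE) unheated (limma adjusted p = 0.0346) and by -1.44 ± 0.22 preshocked (0.0454). With the pairs as a random block the limma adjusted p was 0.0537 and 0.0721. Its preshock differences were -0.41 ± 0.20 in knockout and -0.34 ± 0.24 in rescue and did not pass. The other 15 gave 0 calls by limma between the lines. The 10 tested semaphorins and plexins had medians of -0.59 unheated and -0.50 preshocked for rescue minus knockout, against -0.0236 and -0.0135 over all genes, and none was called. With arrays centred on their medians the values over all genes became 0.497 and 0.418. The semaphorins and plexins were not read under that scaling, so nothing is read from their medians.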
